A study of Rattus norvegicus with 6 samples.

Results

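EGR and NR4A genes are immediate-early genes, a class whose transcripts appear within minutes of a stimulus without new protein synthesis and decay soon after. The 8 genes described here were chosen by name: the zinc-finger transcription factor genes Egr1, Egr2 and Egr3, the orphan nuclear receptor genes Nr4a1, Nr4a2 and Nr4a3, the nuclear protein gene Ier2 and the MAP kinase phosphatase gene Dusp1. All 8 were found among the 21026 gene symbols of the count table, and all 8 were among the 14273 genes with enough counts to test. Polyadenylated RNA was measured in bone marrow mesenchymal stem cells, the adherent marrow stromal cells that can form bone, fat and cartilage, from the rat (Rattus norvegicus). The label Young is carried by 3 libraries and the label aged by 3, giving 2 groups, and no strain, sex, age in months, passage or treatment is stated beside these words. The libraries are numbered as biological replicates, but nothing says that each came from its own animal, so p-values measure the spread between these libraries only, which may be technical.

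In the usual course, growth factors, stretch or hormones activate MAP kinases and cyclic AMP signalling, and these act on the factors SRF, its ternary complex partners and CREB, which already sit at the promoters of the immediate-early genes. EGR proteins bind GC-rich sites and are held in check by the corepressors NAB1 and NAB2, whereas NR4A proteins bind DNA without a known ligand, as monomers, as dimers or with the retinoid X receptor. In bone-forming stromal cells both families are known to be induced by parathyroid hormone and prostaglandins, and DUSP1 ends the response by removing phosphate from MAP kinases.

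Library totals ran from 34638874 to 42479626 counts, and levels are given as CPM, read counts rescaled to the same library size, after TMM scaling, which aligns libraries on the bulk of genes that change least. Young replicates 1 and 3 differed from young replicate 2 by 9.19 to 11.2 times sampling noise (chi-square per degree of freedom over genes) against 3.13 to 3.64 for all other pairs of one group, so values without young replicate 2 are among the alternatives. Mitochondria-encoded genes took 1.07% to 1.36% of counts in young and 4.25% to 4.46% in aged libraries. The label was checked against 10 stromal markers, which summed to between 40500 and 41040 CPM in young and between 20250 and 20490 CPM in aged libraries. Collagen gene Col1a1 and the surface marker gene Thy1 were high in both groups, but 2 of the 10 (Lepr and Vcam1) stayed under 1 CPM in every library. The 10 did not move together: 6 were lower in aged cells, 2 higher and 2 not called (edgeR adjusted p under 0.05). Among all tested genes 41.8% were lower and 44.7% higher. Cxcl12 fell 16.7-fold, from 3387 ± 165 to 203 ± 1.44 CPM, and Nt5e rose 4.48-fold, from 10.5 ± 0.347 to 47.3 ± 0.561 CPM. Of 9 markers of macrophages and other blood cells in the table, 5 were under 1 CPM throughout, and Ptprc, the pan-leukocyte gene, had 1 count in all 6 libraries. The sum of those 9 was 92.96 to 95.94 CPM in young and 43.29 to 44.17 CPM in aged libraries, mostly Cd14 in young (80.7 ± 0.772 CPM) and, in aged, Csf1r (21.8 ± 0.552 CPM) and Cd14 (21 ± 0.6 CPM). Single markers moved in opposite directions: Csf1r rose from 0.321 ± 0.182 CPM in young cells, while Lyz2 fell from 10.4 ± 1.33 to 0.173 ± 0.149 CPM and Cd68 from 2.66 ± 0.763 to 0.784 ± 0.263 CPM. All 6 endothelial markers were under 1 CPM in every library. The part of mitochondrial share or of blood markers in the results below was not tested. In bulk RNA, fewer cells of a type and less RNA per cell cannot be told apart. Nor can age be told apart from any culture or harvest step that differed along with the labels.

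All 8 genes were lower in the aged cells, and in each of them the 3 young libraries lay above the 3 aged ones. Of all genes tested, 86.4% were called in either direction and 41.8% were called lower (edgeR, quasi-likelihood F test, p adjusted by Benjamini-Hochberg and under 0.05), and in 87.5% the groups did not overlap, so the calls by themselves say little about these genes. Their sizes ranged widely, from a 1.53-fold fall of Dusp1 to a 68.8-fold fall of Nr4a1. At least 2-fold falls were seen for 7 of the 8, against 21.0% of all tested genes, and at least 4-fold falls for 4 of the 8, against 7.13%. The 8 genes were chosen with earlier results of these data known, so these shares only describe them. The median log2 change was -1.86 over the 8 genes and 0.05 over all genes tested. All 8 remained called lower when libraries were scaled by library size alone, a setting that raised log2 changes by a median of 0.34, and their median was then -1.53.

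**Figure D1:**
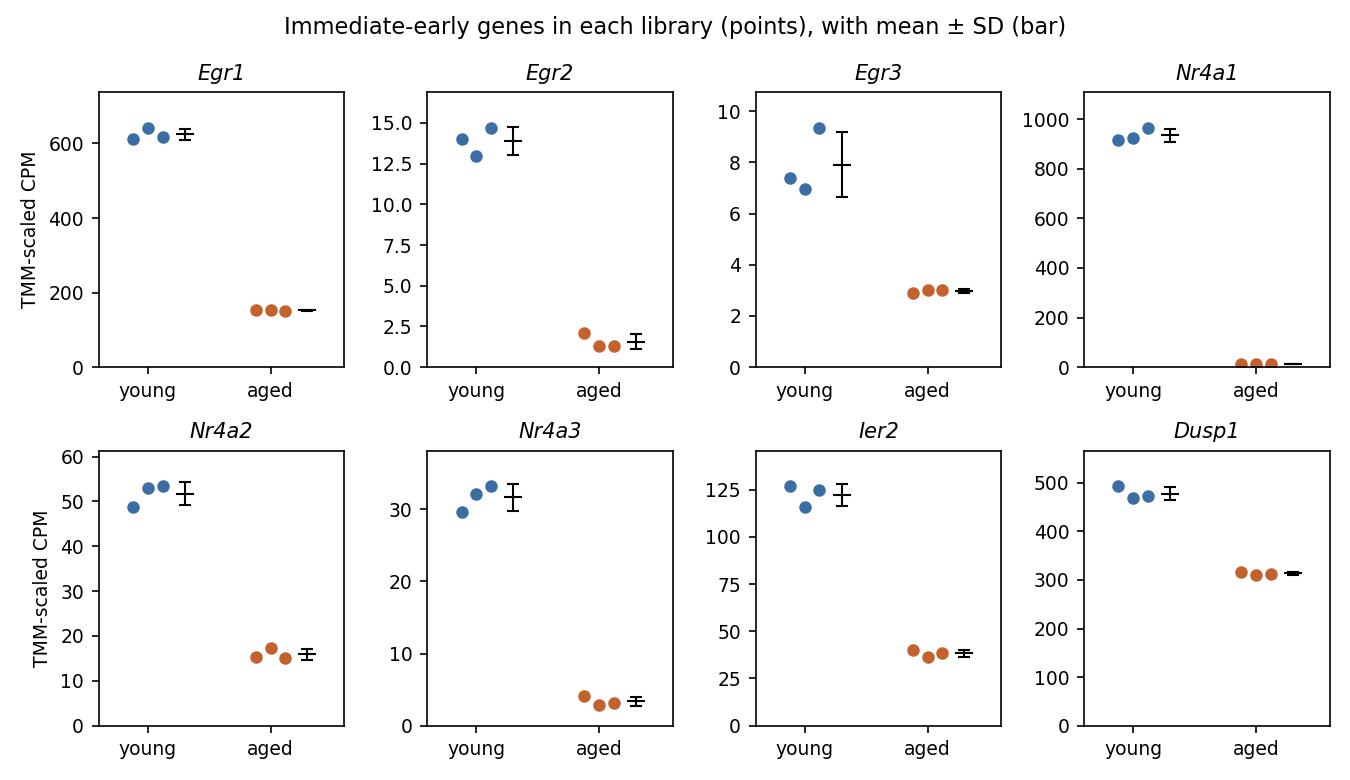
TMM-scaled CPM (vertical axes, linear from 0) of the 8 genes in the 3 young (blue) and 3 aged (orange) libraries, with mean ± SD beside the points. No gene shows overlap between the groups; Nr4a1 goes from 915.3 to 964.5 CPM in young libraries to between 13.2 and 13.94 CPM in aged ones, and Dusp1 keeps 310.6 CPM or more in every aged library.

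The NR4A receptors had the widest range of change. Nr4a1, which encodes NUR77, stood at 915.3, 924.1 and 964.5 CPM in the young libraries and at 13.2, 13.94 and 13.61 CPM in the aged ones. The lowest young library was thus 65.7-fold above the highest aged one, and libraries of one group differed from each other by no more than 1.06-fold. The log2 change was -6.10 (SE 0.04, edgeR adjusted p = 1.3e-22). This change had 78 of all tested genes (0.546%) below it. In young cells 155 tested genes had more CPM than Nr4a1, and none of these fell by more. Among the 2020 genes with at least 100 CPM in young cells, 3 fell by more, and they are named here after their values were seen: the fatty acid-binding protein gene Fabp4, the lubricin gene Prg4 and the peptide hormone gene Apln. Both sets were cut on the level in young cells, where Nr4a1 was high, so they only describe it. In aged cells 56.2% of tested genes had a higher CPM than Nr4a1, against 1.09% in young cells.

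Nr4a2, which encodes NURR1, had 48.76, 53.02 and 53.34 CPM in young libraries and 15.38, 17.36 and 15.12 CPM in aged ones. That is a 3.24-fold fall, with every young library well above every aged one (log2 change -1.70, SE 0.07, edgeR adjusted p = 2.1e-13). Nr4a3, which encodes NOR1, had 29.56, 32.16 and 33.16 CPM in young libraries. The aged libraries had 4.044, 2.912 and 3.127 CPM of Nr4a3, the first being 1.39-fold above the second, and the groups stayed 7.31-fold apart at their nearest. Its log2 change was -3.23 (SE 0.11, edgeR adjusted p = 1.1e-14), a 9.41-fold fall.

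Because the 3 receptors fell by different factors, the make-up of the family's reads changed, and this share needs no scaling between libraries. Nr4a1 gave 91.8% ± 0.281 of NR4A counts in young cells and 41.3% ± 1.23 in aged cells (SD, n = 3 each). Nr4a2 went from 5.08% ± 0.173 to 48.4% ± 1.99 of the family's counts although its own level fell, and Nr4a3 from 3.11% ± 0.114 to 10.2% ± 1.98. The count ratio of Nr4a1 to Nr4a2 was 18.8, 17.4 and 18.1 in young libraries and 0.858, 0.803 and 0.9 in aged ones. Summed over the family, the level went from 1018 ± 29.6 to 32.9 ± 1.2 CPM. Shares are of reads, which also scale with transcript length, so they do not rank the 3 genes by number of molecules.

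**Figure D2:**
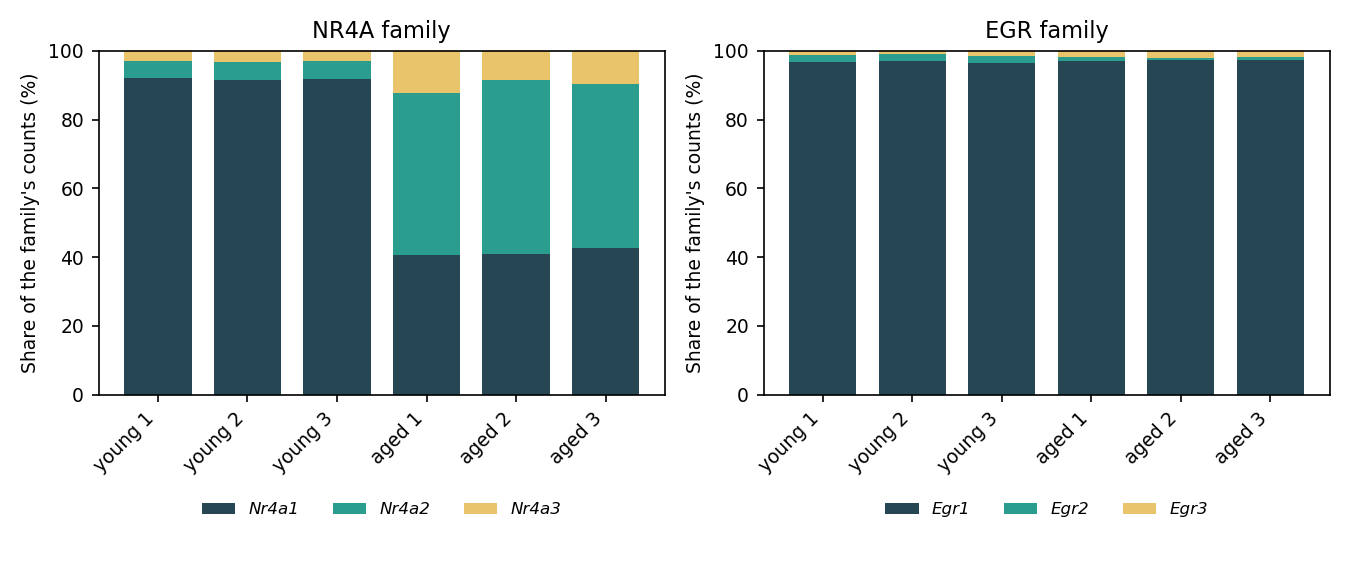
Share of each family's counts (percent, vertical axis) taken by its 3 genes in each of the 6 libraries. Nr4a1 holds 91.6% to 92.1% of NR4A counts in young libraries and 40.5% to 42.7% in aged ones, while Egr1 holds at least 96.3% of EGR counts in all 6.

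The EGR factors fell without such a change in the leading gene. Egr1 had 613.1, 641.8 and 618.1 CPM in young libraries and 154.4, 152 and 151.9 CPM in aged ones. Aged libraries were within 1.02-fold of each other and lay 3.97-fold below the lowest young library. The log2 change of Egr1 was -2.03 (SE 0.03, edgeR adjusted p = 1e-18), a 4.09-fold fall. Egr2, known as a regulator of myelination and of fat cell and osteoclast differentiation, had 14.02, 12.98 and 14.69 CPM in young libraries. In aged libraries it had 2.083, 1.284 and 1.307 CPM, from 86, 56 and 51 counts, so the first aged library was 1.62-fold above the second. The spread of Egr2 among aged libraries (coefficient of variation 29.2%) was above the 12.5% that counting alone would give, and the 8.9-fold fall (log2 change -3.15, SE 0.16, edgeR adjusted p = 3.2e-12) was larger than it. Egr3 had 7.397, 6.964 and 9.348 CPM in young libraries and 2.906, 3.026 and 3.025 CPM in aged ones. Here the young libraries were the more variable, the third being 1.34-fold above the second, and the fall was 2.64-fold (log2 change -1.40, SE 0.15, edgeR adjusted p = 1.1e-07). Egr4, the remaining gene of the family, had 2 counts in all and was not tested.

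Within the EGR family Egr1 held 96.6% ± 0.365 of counts in young and 97.1% ± 0.211 in aged cells, ranges that overlap. The count ratio of Egr2 to Egr3 was 1.9, 1.86 and 1.57 in young libraries and 0.717, 0.424 and 0.432 in aged ones. Here too, reads do not rank the 2 genes by number of molecules.

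Ier2 had 126.8, 115.7 and 124.7 CPM in young libraries and 39.93, 36.48 and 38.32 CPM in aged ones. The fall was 3.2-fold, with groups 2.9-fold apart at their nearest (log2 change -1.68, SE 0.05, edgeR adjusted p = 3.7e-15). Dusp1 had 492.7, 467.9 and 473.5 CPM in young libraries and 316.6, 310.6 and 312.9 CPM in aged ones. Its groups were separate but only 1.48-fold apart at their nearest, and its log2 change of -0.61 (SE 0.03, edgeR adjusted p = 6.6e-12) had 31.5% of all tested genes below it. Scaled by library size alone, the log2 change of Dusp1 was -0.27. Dusp1 stayed among the abundant transcripts in both groups: 2.72% of tested genes had a higher CPM in young and 2.94% in aged cells.

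Differences between the falls of the 8 genes were examined as count ratios within each library, which are free of scaling. Of 28 pairs, 24 had ratios that did not overlap between young and aged libraries, each with an exact two-sided permutation p = 0.10, the smallest that 3 against 3 libraries can give, and an adjusted p = 0.117 over the 28 pairs. No pair could therefore pass a 0.05 threshold. The share of such pairs among all tested genes was not computed. Since 87.5% of single genes did not overlap between groups, the count of 24 says little about these 8 genes. The ratio of Egr1 to Nr4a1 went from 0.67, 0.694 and 0.641 in young to 11.7, 10.9 and 11.2 in aged libraries, a 16.8-fold difference. The widest difference of the 28 was that of Dusp1 relative to Nr4a1, 45.1-fold. In 4 pairs the ratios overlapped. Nr4a2 to Ier2 was 0.384 to 0.458 in young and 0.385 to 0.476 in aged libraries, and Egr2 to Nr4a3 was 0.404 to 0.474 and 0.418 to 0.515. The other two were Egr3 to Nr4a2 and Egr3 to Ier2, whose mean ratios were 1.24-fold and 1.22-fold higher in aged cells.

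Promoter sequences are shown for Nr4a1 and Dusp1, the genes with the largest and the smallest fall, and for Egr2 and Ier2, which fell between them. RefSeq windows of assembly GRCr8 were found by symbol for 6 of the 8 genes, all but Egr3 and Nr4a3, and reach from 250 bases before to 50 bases after the annotated start. The 250 bases before the start are printed on the coding strand, 5′ to 3′. Capitals mark 3 motifs, in either orientation: the CArG box, a run of A and T between CC and GG that SRF binds, TGACG, the core of the cyclic AMP response element, and GCGNGGGCG, the site of EGR factors.
Nr4a1, GRCr8 chr7:134259888-134260137, plus strand: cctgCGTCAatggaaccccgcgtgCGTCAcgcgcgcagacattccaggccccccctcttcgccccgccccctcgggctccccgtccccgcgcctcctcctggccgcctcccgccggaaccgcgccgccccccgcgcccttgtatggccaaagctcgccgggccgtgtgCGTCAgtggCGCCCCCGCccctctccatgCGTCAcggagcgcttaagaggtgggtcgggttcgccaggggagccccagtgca
Dusp1, GRCr8 chr10:17184603-17184852, plus strand: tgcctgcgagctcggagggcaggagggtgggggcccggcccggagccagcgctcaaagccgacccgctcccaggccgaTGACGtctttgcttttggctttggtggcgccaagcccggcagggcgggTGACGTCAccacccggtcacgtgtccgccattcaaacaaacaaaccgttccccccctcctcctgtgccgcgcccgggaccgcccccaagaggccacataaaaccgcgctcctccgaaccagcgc
Egr2, GRCr8 chr20:21054442-21054691, minus strand: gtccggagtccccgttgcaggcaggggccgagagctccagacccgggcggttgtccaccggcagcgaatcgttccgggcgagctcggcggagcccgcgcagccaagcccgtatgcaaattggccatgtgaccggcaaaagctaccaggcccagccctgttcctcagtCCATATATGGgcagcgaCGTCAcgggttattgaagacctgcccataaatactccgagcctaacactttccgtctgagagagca
Ier2, GRCr8 chr19:40399123-40399372, plus strand: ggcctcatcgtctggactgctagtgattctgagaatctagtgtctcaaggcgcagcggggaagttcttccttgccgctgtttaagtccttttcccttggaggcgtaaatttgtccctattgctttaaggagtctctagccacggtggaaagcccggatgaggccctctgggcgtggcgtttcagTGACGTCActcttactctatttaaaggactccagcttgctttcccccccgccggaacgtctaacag
The Nr4a1 stretch holds 4 TGACG cores, all on the opposite strand and so read as CGTCA, and 1 match to the EGR site.

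The TGACG core was found on either strand in all 6 windows, whereas 21.2% of the 33469 rat promoter windows of the same 300 bases hold one, and 32.8% of the 11183 windows found for tested genes. At least 4 such sites, as in Nr4a1, were present in 0.236% of all windows, a threshold set after the Nr4a1 window was seen. The share among windows of tested genes was not computed for this threshold. The full element TGACGTCA, which contains a pair of overlapping cores, was found in Dusp1 and Ier2, in 1.83% of all windows and in 3.22% of those of tested genes. CArG boxes were found in Egr1 (2) and Egr2 (1), in 1.64% of all windows and in 1.46% of those of tested genes. In both Egr1 and Egr2 a CArG box begins 83 bases and a core begins 66 bases before the start. The EGR site in the Nr4a1 window begins 73 bases before the start, and 4.98% of all windows and 10.1% of those of tested genes hold one. The ETS core CCGGAA was found in Egr2, Nr4a1 and Ier2, in 15% of all windows and in 28.2% of those of tested genes, and overlapped none of the other matches. The NR4A site AAAGGTCA (1.43% of all windows, 1.03% of those of tested genes) and the TATA box TATAAA (14.2% and 7.95%) gave no match in the 6 windows. The Nr4a1 window holds 4 cores and the Dusp1 window 3, of which an overlapping pair makes up its full element. Whether the number of matches goes with the size of the fall was not tested. A match only says that these letters are present.

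**Figure D3:**
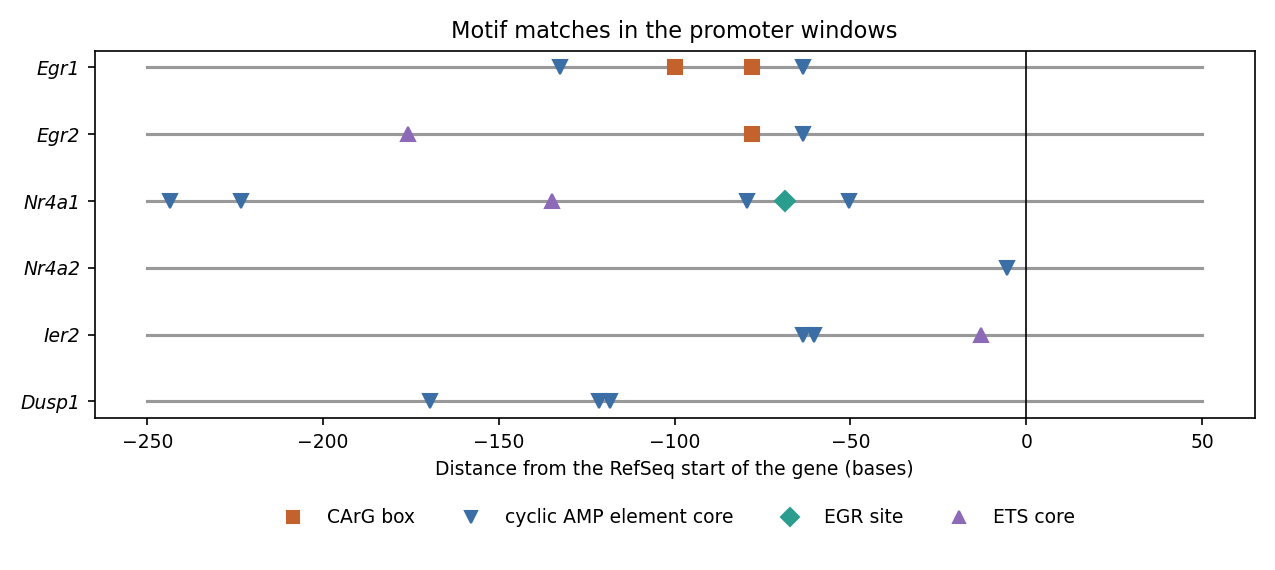
Positions of motif matches in the promoter windows of the 6 genes with a RefSeq window; the horizontal axis is the distance from the annotated start in bases, and each symbol is a match on either strand. Egr1 and Egr2 share a CArG box and a cyclic AMP element core at the same distances, and Nr4a1 holds 4 cores.

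The corepressors of the EGR factors moved apart. Nab2, itself known as a target of EGR proteins, had 167.9, 155.3 and 158.9 CPM in young libraries and 39.13, 40.95 and 43.42 CPM in aged ones, a 3.9-fold fall (log2 change -1.96, SE 0.05, edgeR adjusted p = 2.3e-16). The count ratio of Nab2 to Egr1 was 0.242 to 0.274 in young and 0.253 to 0.286 in aged libraries, so it overlapped between groups. Nab1 rose 1.48-fold, from 39.4 ± 4.13 to 58.4 ± 0.517 CPM. Of the 7 tested partners and cofactors of NR4A receptors, 4 rose (57.1%) and 3 fell (42.9%). The shares over all tested genes were 44.7% higher and 41.8% lower, so these counts say little about the list. Rxra, the retinoid X receptor that pairs with NUR77 and NURR1, fell 3.32-fold from 159 ± 4.14 to 47.9 ± 2.17 CPM. The nuclear receptor coactivator genes Ncoa1 and Ncoa3 rose 5.9-fold and 4.35-fold.

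Other immediate-early genes were lower more often than higher, though less evenly. Of 39 listed, 28 were called lower, 9 higher and 2 not, which is 71.8% lower beside the 41.8% of all tested genes, with a median log2 change of -0.61. With scaling by library size alone the split was 21 lower and 14 higher, with a median of -0.27. Among all 14273 tested genes, that setting gave 4654 lower and 7704 higher. Phlda1, a gene induced by growth factors, fell 9.71-fold from 466 ± 5.86 to 48 ± 1.93 CPM, and the transcription factor gene Cebpd fell 7.37-fold from 194 ± 1.21 to 26.3 ± 0.708 CPM. Ier3, a stress-inducible immediate-early gene, rose 2.98-fold from 129 ± 4.03 to 384 ± 5.42 CPM, and Id2, an inhibitor of helix-loop-helix factors, rose 2.6-fold. No direction can be given for the AP-1 genes as a group. In the main fit 4 of 7 were lower (57.1%, beside 41.8% of all tested genes) and 1 higher. Library-size scaling alone gave 3 lower and 2 higher. Junb fell 4.51-fold, from 420.2, 403.2 and 410.1 CPM in young to 91.64, 89.97 and 91.61 CPM in aged libraries. Fos, the best known immediate-early gene, had 9.337, 10.71 and 8.06 CPM in young and 8.839, 8.392 and 9.202 CPM in aged libraries, overlapping between groups (log2 change -0.09, SE 0.12, edgeR adjusted p = 0.47). The count ratio of Fos to Egr1 went from between 0.013 and 0.0167 in young libraries to between 0.0552 and 0.0606 in aged ones. Fosl1 fell 1.76-fold and Fosl2 1.43-fold, and Fosb rose 1.69-fold, from 2.91 ± 0.32 to 4.9 ± 0.792 CPM. Jun fell 1.26-fold, but its log2 change was 0.01 and not called when scaled by library size alone (edgeR adjusted p = 0.924). Jund at 84.6 ± 1.45 and 89.3 ± 2.2 CPM was not called (edgeR adjusted p = 0.11), although with library-size scaling alone it was called higher (log2 change 0.41, edgeR adjusted p = 1.29e-07).

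Upstream of these genes, activator genes changed in both directions. Of 17 tested genes of SRF, its partners, CREB and MEF2, 9 rose (52.9%, beside 44.7% of all tested genes called higher). Another 4 fell (23.5%, beside 41.8% called lower), and the median log2 change was 0.57. Scaling by library size alone gave 15 higher and 2 lower, with a median of 0.90. That setting raised log2 changes of all genes by a median of 0.34, with 7704 of 14273 called higher and 4654 lower. Srf itself fell 2.32-fold from 116 ± 8.88 to 50.2 ± 2.64 CPM, and its ternary complex partner Elk1 fell 1.77-fold. Mef2a and Mef2c, which encode calcium-responsive activators of Nr4a1, rose 7.02-fold and 4.86-fold, the latter to only 10.8 ± 0.489 CPM. Genes of the MAP kinase cascades were divided, with 13 of 26 higher and 11 lower and a median of 0.06, or 16 higher and 9 lower and a median of 0.40 with library-size scaling alone. Braf and Rps6ka3, encoding a RAF kinase and the kinase RSK2, rose 7.85-fold and 6.81-fold, whereas Map2k2, encoding MEK2, fell 3.16-fold and Rps6ka4, encoding the histone and CREB kinase MSK2, fell 3.32-fold.

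Among negative regulators of the MAP kinases other than Dusp1, 5 of 8 tested phosphatase genes fell and 1 rose, beside 41.8% of all tested genes called lower. Their log2 changes had a median of -0.69, and of -0.35 with scaling by library size alone. Dusp4 and Dusp10 fell 2.31-fold and 2.28-fold, Dusp5 fell 1.92-fold, Dusp7 fell 1.82-fold and Dusp6, the ERK phosphatase gene, fell 1.43-fold. Dusp16 rose 1.2-fold (edgeR adjusted p = 0.0091), a call that was lost without the first young library (adjusted p = 0.0523) or without the first aged one (adjusted p = 0.0635). Dusp2 and Dusp8, both under 4 CPM, were not called (edgeR adjusted p = 0.50 and adjusted p = 0.96). Of 6 genes of the Sprouty and Spred inhibitors of RAF signalling, 5 fell (83.3%, beside 41.8% of all tested genes). Spry1 fell most, 8.7-fold from 165 ± 3.78 to 19 ± 0.094 CPM. Spry2 fell 2.51-fold, and Spred1 rose 4.36-fold.

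Known EGR1 target genes did not share a direction, with 5 of 9 lower (55.6%) and 4 higher (44.4%). Among all tested genes 41.8% were called lower and 44.7% higher. The median of the 9 was -0.26, which became 0.08 with scaling by library size alone. Tgfb1, encoding the growth factor TGF-beta 1, fell 3.23-fold and the adhesion gene Icam1 fell 2.33-fold, while the growth factor gene Pdgfa rose 1.31-fold. Heat shock genes, a class with rapidly induced members, also changed in both directions. Of 8, 4 rose (beside 44.7% of all tested genes) and 3 fell. Library-size scaling alone gave 6 higher and 2 lower, with a median log2 change of 0.74 in place of 0.41. That setting gave 7704 of all 14273 tested genes higher and 4654 lower. Hsp90aa1 rose 12.2-fold from 50.8 ± 6.5 to 618 ± 6.3 CPM and Hspa1b rose 2.88-fold, while Hspa8 and Dnajb1 fell 1.66-fold and 1.72-fold.

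**Figure D4:**
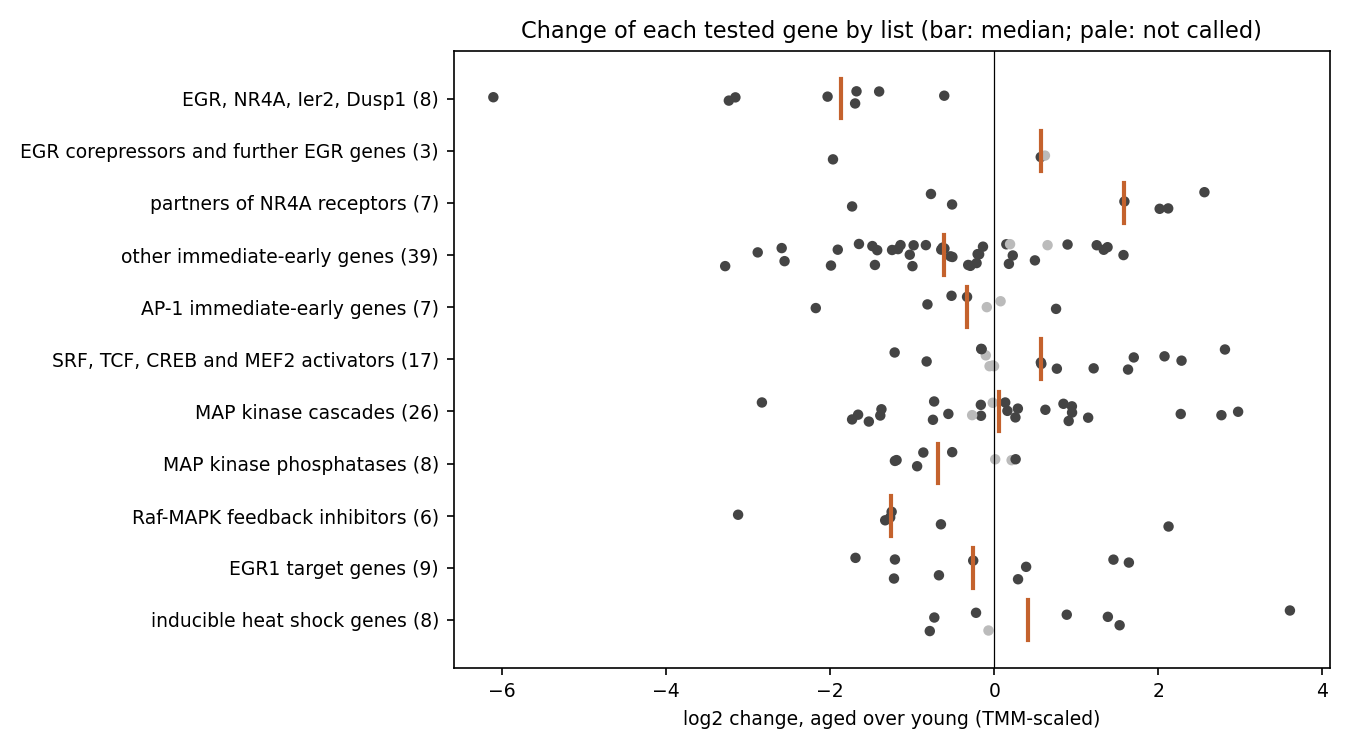
Log2 change (aged over young, horizontal axis) of each tested gene in the 8 genes described and in 10 related lists, with the number tested in parentheses; dark points were called, pale points were not, and bars are medians. All 8 points of the top row lie below 0, whereas the 17 activator genes have their median at 0.57.

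Change across all genes varied with gene length, so each gene was set beside genes of similar span (the distance between its ends in RefSeq). With the tested genes cut into 5 equal groups by span, the shortest group, up to 7500 bases, had a different centre from the longest. In the shortest group the median log2 change was -0.47 and 54.9% were called lower, while in the longest group it was 0.59 and 31.7% were called lower. Egr1, Egr2, Egr3, Ier2 and Dusp1 belong to the shortest group. Of the genes in that group, 45.2% fell by more than Dusp1, 18.8% by more than Egr3, 13.6% by more than Ier2, 8.92% by more than Egr1 and 3.69% by more than Egr2. The receptor genes are longer: Nr4a1 and Nr4a2 lie in the middle group, with a median of 0.02, where 0.516% and 9.63% of genes fell by more. Nr4a3 lies in the next longer group, with a median of 0.40, where 1.7% of genes fell by more. The part of length in these falls was not tested.

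**Figure D5:**
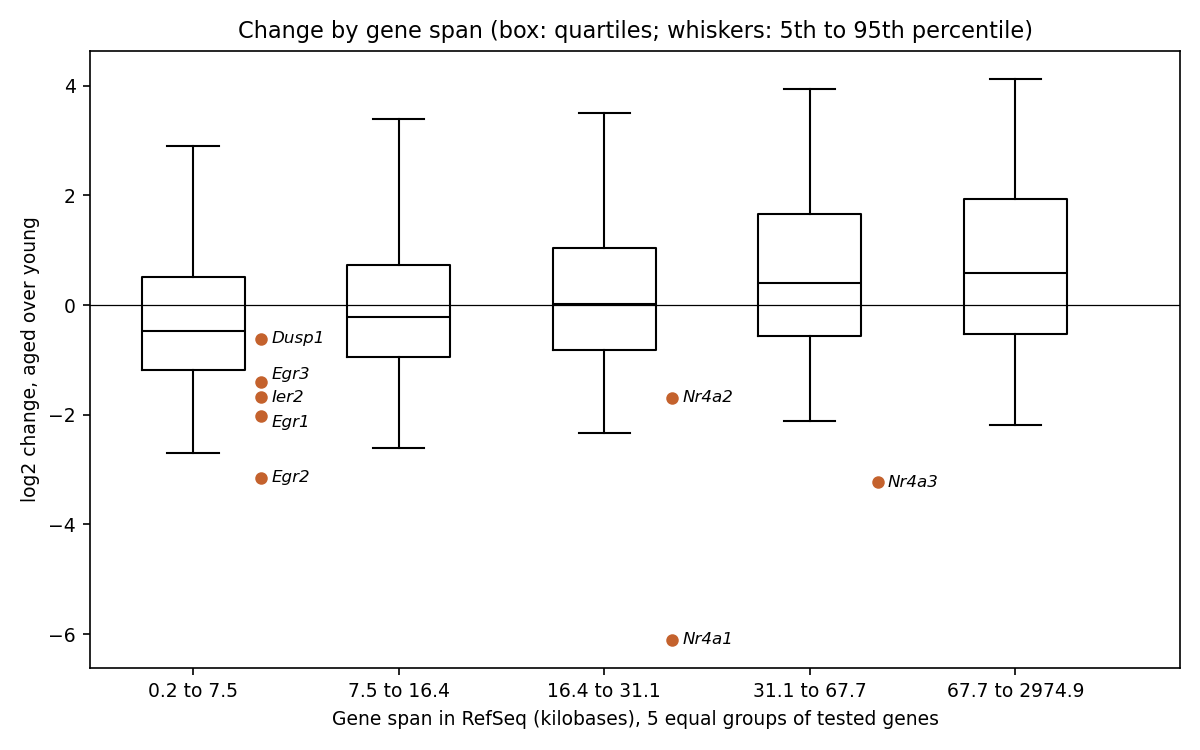
Log2 change (aged over young) of tested genes in 5 equal groups of gene span, as boxes of quartiles with whiskers that leave out the outermost 5% at either end, and the 8 genes as labelled points. Dusp1 lies within the box of its group, Egr2, Nr4a1 and Nr4a3 lie below the lower whisker, and the others lie between.

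For each gene the most similar profiles were sought among 10024 other genes with a mean of at least 5 CPM, by the root mean square difference of log2 CPM over the 6 libraries after centring each gene on its own mean. With 2 groups this measure follows mainly the size of the fall. Nearest to Egr1 were the kinesin gene Kif26b (difference 0.0169) and the transcription factor gene Sox4 (0.0215). Nearest to Nr4a1 were Gja5, the gap junction gene of connexin 40 (0.0916), which fell from 791 to 12.8 CPM, and the cysteine dioxygenase gene Cdo1 (0.133). Egr2 and Nr4a3 were in each other's nearest 2 (0.116), beside the replication gene Mcm5 for Egr2 (0.139) and the homeobox gene Dlx3 for Nr4a3 (0.113). Egr3 was nearest to Mrps16 (0.0798) and Bcl2l12 (0.0853), Nr4a2 to Slc24a3 (0.0436) and Dera (0.0459), Ier2 to Tor4a (0.0198) and the tubulin gene Tubb4b (0.0276), and Dusp1 to Klhdc3 (0.0109) and Akr1a1 (0.0139).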

How the data were processed

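The deposited table holds raw read counts per gene symbol, 1 column per library, without normalization by the authors. Per the labels' protocols, TRIzol served for RNA extraction and a VAHTS Universal V6 kit for the libraries. Per the submitters' processing notes, the tools were fastp, HISAT2 and HTSeq, with no version stated. Genome build, annotation, strand setting and filters were not given in the sources used here, so reads of overlapping or antisense genes cannot be told apart. Columns were matched to samples through the library names in the labels.

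The test on the counts was that of edgeR 4.0.16 (R 4.3.3), with filterByExpr at a minimum count of 10, TMM scaling and the quasi-likelihood F test, with no term but group. P-values were adjusted over 14273 genes (Benjamini-Hochberg), with calls under 0.05. The procedure was also tested on simulated data, with 50 genes changed per fold size, each with a mean of at least 50 counts. It recovered 62%, 82%, 96% and 100% of changes of 1.25-fold, 1.5-fold, 2-fold and 4-fold, and 4.49% of calls were false. Far fewer genes changed there than were called in these data, so it does not cover a shift of most genes. Standard errors are the log2 change over the square root of F, values are mean ± SD over 3 libraries, and fold changes come from the fit. A gene with 0 counts could be present at up to 3 counts, 0.0688 to 0.084 CPM by library, a limit that covers counting error only. Alternatives were other scalings, no filter, DESeq2 1.42.0, limma-voom (limma 3.58.1), a replicate block and leaving out each library.

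The 8 genes and the 10 related lists were chosen with earlier results of these data known. From each related list the text names the 2 largest called rises and 2 largest called falls with a mean of at least 5 CPM and no overlap; every AP-1, corepressor and phosphatase gene could be named. Of the genes this rule names, 2 are not reported here. Promoter windows were matched by symbol, and motifs were searched as exact letters on both strands. Coding length had been planned, but gene span from RefSeq, known for 95% of tested genes, was used in its place.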

Additional observations from a re-analysis of the deposited data

How the results depend on the processing

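All 8 genes kept their direction and their call under each of the 13 alternatives. The log2 change of Nr4a1 ran from -6.14 to -5.77, that of Egr2 from -3.42 to -2.82 and that of Dusp1 from -0.63 to -0.27, and the largest adjusted p among them was 4.95e-06, for Egr3. Leaving out 1 library at a time gave 6241 to 6565 genes higher and 5870 to 6012 lower. With scaling by library size alone, 7704 genes were higher and 4654 lower, which is 62.3% of calls higher against 51.7%. Some other genes changed sign. With scaling by library size alone, Jun went from -0.33 to 0.0051 and lost its call (adjusted p = 0.924), Fos went to 0.25, and Jund gained a call at 0.41. Without a call in either fit, Fos went to 0.0128 without young replicate 2, with -0.20 as its other end when single libraries were left out. Dusp8 went to -0.0104 with upper quartile scaling, -0.00337 with no filter on low counts, -0.00664 with DESeq2 Wald test, -0.0683 without young replicate 2, -0.135 without young replicate 3, -0.113 without aged replicate 3, and was 0.22 without young replicate 1 and 0.35 with scaling by library size alone. The cause was not tested. Same-numbered libraries did not deviate together (correlations of -0.013, 0.0011 and 0.0098 between pairs across genes), so the numbers do not pair them. With the replicate number as a block, 6279 genes were higher and 5883 lower, and the log2 changes were -2.03 for Egr1, -3.17 for Egr2, -1.39 for Egr3, -6.10 for Nr4a1, -1.70 for Nr4a2, -3.24 for Nr4a3, -1.68 for Ier2, -0.61 for Dusp1. Depth limits Egr2 most: its 51 to 86 aged counts give a counting error of 12.5%. The fit without a library that left 2 in a group took its spread from both groups.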
